A study of Homo sapiens with 8 samples.

Results

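The polypeptide GalNAc transferases (GALNT genes) encode the enzymes that start mucin-type O-glycosylation, and 10 of them were followed here: GALNT1, GALNT2, GALNT3, GALNT4, GALNT5, GALNT6, GALNT7, GALNT10, GALNT12 and GALNT18. They were taken by symbol from the 60675 gene identifiers of the count tables. The family was selected on a measured value, since the GALNT18 transcript was among the largest falls in resistant cells. The values of GALNT18 are therefore given as a description with no test, and it is left out of every count of changed members. All 10 genes passed the filter on low counts, but GALNT4 reached its cutoff (0.127 CPM) in the resistant indisulam libraries alone, the group where it was highest, so counts and medians are given over the other 8 members.

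RNA was sequenced from Panc10.05, a human cell line from a pancreatic tumor, and from a derivative with acquired resistance to indisulam. Indisulam is an aryl sulfonamide that brings the splicing factor RBM39 to the ubiquitin ligase receptor DCAF15 for degradation. Each of 4 groups had 2 libraries, 8 in all. Parental untreated cells received no drug and parental indisulam cells received 2 µM for 18 h. Resistant indisulam cells had been kept on 2 µM without a break, whereas resistant untreated cells had spent 1 wk off the drug. Exposure times on drug therefore differed between the lines. In resistant cells each drug comparison sets continuous exposure against withdrawal. A rise on the drug and a fall on withdrawal cannot be told apart there. The resistant cells are a single derived line, and same-group libraries were technical replicates per the study, so the p-values measure only the spread between these libraries. Panc10.05 is the line in the titles and was followed, although protocol fields of the labels mention A549, a lung cancer line.

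Each GALNT enzyme sits in the Golgi and transfers N-acetylgalactosamine from UDP-GalNAc to a serine or threonine of a passing protein. Some members act on bare peptide, and others prefer peptide that already carries a GalNAc, so the set present in a cell shapes which sites are filled. The first sugar is then extended, for example by C1GALT1, or capped with sialic acid, and branching enzymes act on the extended chain. In pancreatic ductal cells these chains decorate mucins such as MUC1.

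Libraries held 65266253 to 108002436 reads in genes, and 16661 genes were tested. Same-group libraries differed by more than sampling noise (mean chi-square per gene between 2.04 and 5.87). All 6 epithelial and ductal markers (EPCAM, CDH1 and keratins) were detected, with a summed level of 6324 to 6513 CPM in parental and 10800 to 12229 CPM in resistant libraries. Here CPM is the read count of a gene relative to the TMM-scaled library size. Fibroblast markers summed to 1.35 to 4.03 CPM, highest in the resistant indisulam libraries, with 2 of 6 at 0. Leukocyte and endothelial markers summed to 0.216 to 0.386 CPM with PTPRC and CD3E at 0, and acinar and islet markers to at most 0.0462 CPM with 4 of 5 at 0. The part of these differences in the GALNT results was not tested. Less RNA per cell and fewer cells carrying a transcript cannot be told apart in such bulk libraries.

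GALNT18 belongs to a branch of the family whose members show weak or no transfer to standard test peptides. The gene (ENSG00000110328) lies on the minus strand at chr11:11270877-11622005 of GRCh38 and has 13 exon blocks. Its level was 15.8 and 15.7 CPM in the parental untreated libraries and 12.4 and 13.0 CPM in the parental indisulam libraries. It was 3.94 and 3.94 CPM in resistant cells off the drug and 1.69 and 1.80 CPM in the resistant indisulam libraries. The 4 groups did not overlap, and their order ran from parental untreated down to resistant indisulam. They stood on 114 to 1724 reads per library. Off the drug, resistant cells held 3.98-fold less GALNT18 than parental cells (log2 fold change -1.99, SE 0.063). On the drug the gap was 7.23-fold (-2.85, SE 0.075). The drug went with a log2 difference of -0.31 (SE 0.051) in parental cells and -1.17 (SE 0.094) in resistant cells. The response in resistant minus parental cells was -0.86 (SE 0.11).

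The genes whose pattern was most like that of GALNT18 were CTNNAL1, INSYN2B, ZNF37A, CPSF4 and PDAP1. Likeness was Pearson's r of log2(CPM + 1) over the 8 libraries among 10343 protein-coding genes. The values ran from 0.9975 for PDAP1 to 0.9988 for CTNNAL1, and since the libraries form 4 groups they mainly describe group means. CTNNAL1, which encodes an alpha-catenin-like protein, averaged 458 CPM in untreated and 412 CPM in treated parental cells, and 222 and 166 CPM in resistant cells. INSYN2B averaged 62.3, 50.4, 22.9 and 12.6 CPM in the same order, and ZNF37A 13.6, 12.3, 8.50 and 6.35 CPM. CPSF4 averaged 87.1, 82.6, 66.5 and 59.4 CPM, and PDAP1 293, 283, 235 and 204 CPM. Pearson's r does not measure the size of a change, and these 2 genes changed much less than GALNT18. Within the span of GALNT18 and on the same strand lies CSNK2A3, a retrocopy of a casein kinase 2 subunit, at chr11:11351942-11353250. It had 73 and 79 reads in untreated parental libraries, 50 and 52 in treated parental ones, 22 and 21 in untreated resistant and 4 and 16 in treated resistant ones. The order of its group means in CPM was that of GALNT18 (0.703, 0.669, 0.310 and 0.113), with an r of 0.988, and its parental groups overlapped. CSNK2A3 lay below the level needed for the ranking, so it was not among the genes ranked. Reads of this copy and of its parent gene may be hard to separate, so its counts are uncertain.

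**Figure D1:**
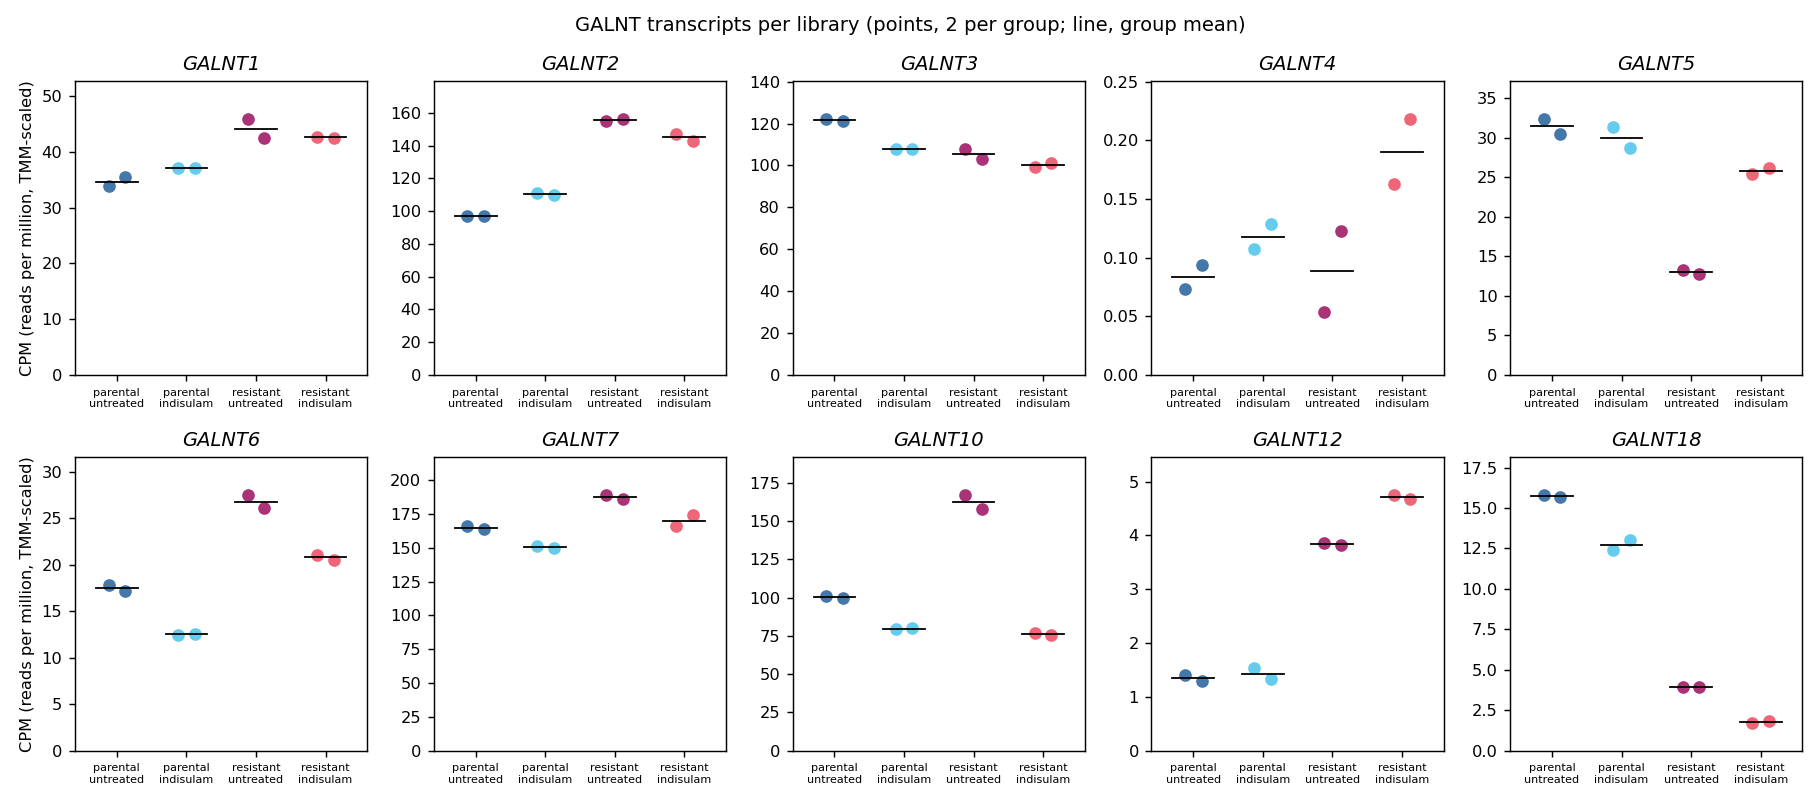
Level of each of the 10 GALNT genes in CPM (y axis, from 0, a scale per gene) in the 2 libraries (points) of each group (x axis), with the group mean as a line. GALNT18 steps down over the groups from 15.8 to 1.69 CPM, GALNT5 is low and GALNT10 high in the resistant untreated libraries, and GALNT12 is higher in both resistant groups.

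Levels of different members were compared per length, as CPM per kb of annotated exon. Parental untreated cells held most GALNT3 (26.5 ± 0.199, SD, n = 2), followed by GALNT7 at 24.2 ± 0.189 and GALNT2 at 12.6 ± 0.00267 CPM per kb. After these came GALNT10, GALNT1, GALNT18, GALNT5, GALNT6, GALNT12 and GALNT4, in that order, and no neighbours overlapped. The order was the same in parental indisulam cells. In resistant untreated cells GALNT7 led with 27.5 ± 0.311 CPM per kb, ahead of GALNT3 at 23.0 ± 0.657 and GALNT2 at 20.2 ± 0.0478. GALNT18 ranked below every member but GALNT4 in both resistant groups. The place of GALNT4 is uncertain in every group. A readthrough gene covers 93.4% of its exon bases on the same strand, and reads matching several genes were left out. The levels of GALNT12 and GALNT5 overlapped in resistant untreated cells (1.21 to 1.22 and 1.16 to 1.21 CPM per kb), the only neighbours in any group to do so. When length was taken from the longest transcript instead, GALNT7 led in all 4 groups, GALNT2 passed GALNT3 in both resistant groups, and GALNT18 passed GALNT12 and GALNT5 in resistant untreated cells.

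The 10 members together summed to 89.6 ± 0.478 CPM per kb in parental cells off the drug and 83.1 ± 0.0564 on it (SD, n = 2). In resistant cells the sum was 102 ± 2.16 off the drug and 88.4 ± 0.693 on it. GALNT2, GALNT3 and GALNT7 made up 70.7%, 72.1%, 69.4% and 74.3% of this pool in the same order of groups. The share of GALNT18 was 4.83% and 4.21% in the parental groups and 1.07% and 0.544% in the resistant groups. The share of GALNT10 stood at 15.2% in resistant untreated cells and between 8.21% and 10.6% in the other groups.

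**Figure D2:**
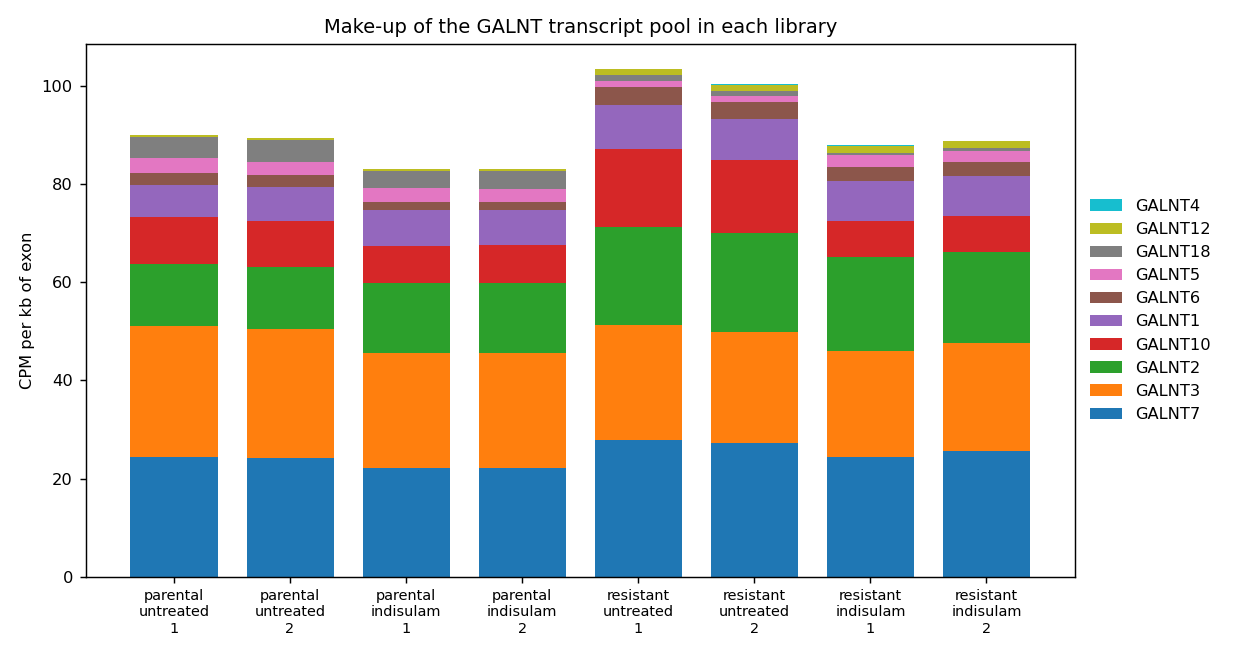
Stacked levels of the 10 GALNT genes in CPM per kb of exon (y axis) for each of the 8 libraries (x axis). GALNT7, GALNT3 and GALNT2 fill most of each bar, the resistant untreated bars are the tallest (group mean 102), and the grey GALNT18 band is thin in the 4 resistant libraries.

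GALNT1 and GALNT2 are widely expressed enzymes that act on bare peptide. GALNT1 (chr18:35581117-35711834, plus strand) stood at 33.9 and 35.4 CPM in untreated parental libraries, 37.0 and 37.0 in treated parental ones, 45.8 and 42.5 in untreated resistant and 42.7 and 42.4 in treated resistant ones. Every resistant library was above every parental one. The line difference was 0.35 log2 units off the drug (SE 0.038, edgeR quasi-likelihood test, Benjamini-Hochberg adjusted p = 2.7e-08) and 0.20 on it (SE 0.039, adjusted p = 7.8e-05). Its rise with the drug in parental cells was small (0.10, SE 0.039, adjusted p = 0.037) and was no longer called when any library other than parental untreated replicate 2 was left out (0.07 to 0.08). In resistant cells the response was -0.05 (SE 0.039, adjusted p = 0.26). The call on the difference between these responses (-0.15, adjusted p = 0.026) was lost without either parental indisulam library, either resistant indisulam library, parental untreated replicate 1 or resistant untreated replicate 1 (-0.14 to -0.07).

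GALNT2 (chr1:230057990-230282122, plus strand) was at 97.0 and 97.0 CPM in untreated parental libraries, 111 and 110 in treated parental ones, 155 and 156 in untreated resistant and 147 and 143 in treated resistant ones. The groups did not overlap, with both resistant groups above both parental ones. Resistant cells held 1.60-fold more off the drug (log2 0.68, SE 0.028, adjusted p = 3.9e-16) and 1.32-fold more on it (0.40, SE 0.028, adjusted p = 9.9e-12). GALNT2 was higher on the drug in parental cells (0.19, SE 0.028, adjusted p = 5.5e-06) and lower on it in resistant cells (-0.10, SE 0.028, adjusted p = 0.0055). The fall in resistant cells was not called without resistant indisulam replicate 2 (-0.08). The responses differed by -0.28 (SE 0.040, adjusted p = 3.2e-06). ENSG00000224407, a noncoding gene on the other strand, shares 13.3% of the GALNT2 exon bases and had 13 reads over all libraries.

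GALNT3, known for the O-glycan that protects the hormone FGF23 from cleavage, and its close relative GALNT6 moved in opposite directions between the lines. GALNT3 (chr2:165747588-165794659, minus strand) was at 122 and 121 CPM in untreated parental libraries, 108 and 108 in treated parental ones, 108 and 103 in untreated resistant and 99.1 and 101 in treated resistant ones. It was highest in parental untreated cells, and resistant untreated replicate 1 lay close to the parental indisulam libraries. Resistant cells had less off the drug (-0.21, SE 0.029, adjusted p = 1.7e-06) and on it (-0.11, SE 0.030, adjusted p = 0.0032), the latter not called without parental indisulam replicate 1 (-0.09) or 2 (-0.08), with libraries scaled by totals alone (-0.02) or with a minimum mean CPM of 1 (-0.03). The drug lowered GALNT3 in parental cells (-0.18, SE 0.029, adjusted p = 1.8e-05). The fall in resistant cells (-0.07, adjusted p = 0.043) was lost without either parental untreated, either resistant indisulam, parental indisulam replicate 2 or resistant untreated replicate 1 library (-0.09 to -0.04). The call on the difference of the responses (0.10, adjusted p = 0.048) was lost with DESeq2 size factors (0.09) and with the DESeq2 Wald test (0.09). It was also lost without either parental untreated library, parental indisulam replicate 1, resistant untreated replicate 2 or resistant indisulam replicate 2 (0.09 to 0.12).

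GALNT6 (chr12:51351247-51392867, minus strand) was at 17.8 and 17.2 CPM in untreated parental libraries, 12.4 and 12.6 in treated parental ones, 27.5 and 26.1 in untreated resistant and 21.1 and 20.5 in treated resistant ones. The groups did not overlap, and within each line the treated libraries were lower. GALNT6 was lower on the drug in parental (-0.48, SE 0.047, adjusted p = 8.9e-09) and resistant cells (-0.37, SE 0.044, adjusted p = 2.0e-07). The difference of the responses was 0.12 (adjusted p = 0.14), with an interval of 2 SE from -0.01 to 0.24, and it was called without resistant untreated replicate 1 (0.18), with libraries scaled by totals alone (0.23) and with a minimum mean CPM of 1 (0.20). Resistant cells held more off the drug (0.62, SE 0.043, adjusted p = 8.9e-12) and on it (0.73, SE 0.048, adjusted p = 1.9e-12). SLC4A8 on the other strand shares 5.3% of the GALNT6 exon bases and had 0.9% of the reads of the pair.

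GALNT5 and GALNT10 showed the widest gap between the drug responses of the lines among the members with a test. GALNT5 encodes a transferase with a long stem between its membrane anchor and catalytic part, and it lies at chr2:157257705-157318491 on the plus strand. Its level was 32.3 and 30.5 CPM in untreated parental libraries, 31.3 and 28.7 in treated parental ones, 13.3 and 12.8 in untreated resistant and 25.4 and 26.1 in treated resistant ones. The resistant untreated libraries stood apart at the bottom, and the other 3 groups lay between 25.4 and 32.3 CPM. Off the drug resistant cells held 2.40-fold less than parental cells (-1.26, SE 0.049, adjusted p = 1.3e-16), while on the drug the gap was 1.16-fold (-0.22, SE 0.045, adjusted p = 1.4e-04). Resistant cells kept on the drug held 1.97-fold more GALNT5 than those 1 wk off it (0.98, SE 0.051, adjusted p = 1.8e-13). In parental cells the value was -0.06 (SE 0.043, adjusted p = 0.20), and it was called without parental indisulam replicate 1 (-0.15), with libraries scaled by totals alone (-0.13) and with a minimum mean CPM of 1 (-0.12). The responses differed by 1.04 (SE 0.067, adjusted p = 3.1e-11).

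GALNT10, an enzyme that prefers peptide already carrying GalNAc, showed the reverse arrangement. It lies at chr5:154190730-154420984 on the plus strand. The level was 101 and 99.4 CPM in untreated parental libraries, 79.2 and 80.0 in treated parental ones, 167 and 158 in untreated resistant and 76.6 and 75.8 in treated resistant ones. Resistant untreated cells held 1.62-fold more than parental untreated cells (0.70, SE 0.030, adjusted p = 1.2e-15). GALNT10 was 1.26-fold lower on the drug in parental cells (-0.33, SE 0.031, adjusted p = 5.3e-09). In resistant cells it was 2.13-fold lower on continuous drug than 1 wk off it (-1.09, SE 0.031, adjusted p = 2.0e-18). The responses differed by -0.76 (SE 0.044, adjusted p = 4.9e-12). On the drug the lines were 1.04-fold apart (-0.06, adjusted p = 0.084, 2 SE interval -0.13 to 0.00), and this small value changed sign when libraries were scaled by their totals alone (0.02). MFAP3 shares 121 bases, or 1.2%, of the GALNT10 exon bases on the same strand.

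GALNT12, in which inherited variants have been linked to colorectal cancer, lies at chr9:98807670-98850081 on the plus strand and was scarce in parental cells. It stood at 1.41 and 1.29 CPM in untreated parental libraries, 1.53 and 1.33 in treated parental ones, 3.85 and 3.82 in untreated resistant and 4.75 and 4.68 in treated resistant ones. Both resistant groups were well above both parental groups, which overlapped each other. The rise in resistant cells was 2.84-fold off the drug (1.51, SE 0.11, adjusted p = 2.0e-11) and 3.29-fold on it (1.72, SE 0.11, adjusted p = 1.6e-12), the largest rise of any member in either line comparison. In resistant cells GALNT12 was higher on the drug than off it by 0.30 (SE 0.095, adjusted p = 0.012), a call lost without resistant indisulam replicate 1 (0.28) or 2 (0.31) and with the DESeq2 Wald test (0.29). In parental cells the value was 0.08 (SE 0.13, adjusted p = 0.60), and the responses were not shown to differ (0.21, SE 0.16, adjusted p = 0.28). ENSG00000267026, a noncoding gene on the other strand, shares 20.9% of the GALNT12 exon bases and had 0 reads. The strand setting of the counting is not given, so reads in the shared bases may have been left out. The effect on the level of GALNT12 was not tested.

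The promoters of GALNT10 and GALNT12 are shown because, of the 6 members present in the RefSeq promoter table (GRCh38.p14), they had the largest differences between the untreated lines. Each run holds the 250 bases before the RefSeq start, on the plus strand, at chr5:154190483-154190732 for GALNT10 and chr9:98807420-98807669 for GALNT12. Capitals mark every GC box GGGCGG, searched on both strands with overlaps allowed.
GALNT10: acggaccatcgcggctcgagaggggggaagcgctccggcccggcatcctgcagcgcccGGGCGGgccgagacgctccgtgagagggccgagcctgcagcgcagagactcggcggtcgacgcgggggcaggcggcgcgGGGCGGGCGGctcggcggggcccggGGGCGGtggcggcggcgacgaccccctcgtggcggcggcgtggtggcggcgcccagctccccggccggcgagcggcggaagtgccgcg
GALNT12: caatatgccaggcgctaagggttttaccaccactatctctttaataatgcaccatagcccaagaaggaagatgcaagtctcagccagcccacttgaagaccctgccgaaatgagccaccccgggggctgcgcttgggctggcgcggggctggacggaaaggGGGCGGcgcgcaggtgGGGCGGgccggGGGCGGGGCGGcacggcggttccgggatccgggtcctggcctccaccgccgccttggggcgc
Each run held 4 GC boxes, all on the printed strand and some sharing bases with the next, and 42.6% of the 35116 promoters in the table held at least 1 on either strand. The G and C content was 82.4% for GALNT10 and 67.2% for GALNT12, against a median of 58.0% over the table. The libraries measured transcripts and not promoter activity, so these matches are a description of the sequence.

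GALNT7 and GALNT4 also prefer peptides that already carry GalNAc. GALNT7 (chr4:173168811-173323967, plus strand) was at 166 and 164 CPM in untreated parental libraries, 151 and 150 in treated parental ones, 189 and 186 in untreated resistant and 166 and 174 in treated resistant ones. Resistant cells held slightly more, by 0.18 log2 units off the drug (SE 0.029, adjusted p = 6.2e-06) and 0.18 on it (SE 0.029, adjusted p = 1.1e-05). The resistant untreated libraries were highest and the parental indisulam libraries lowest, while the other groups lay next to each other. GALNT7 was lower on the drug in parental (-0.13, SE 0.029, adjusted p = 4.6e-04) and resistant cells (-0.14, SE 0.029, adjusted p = 2.8e-04). The difference of the responses was -0.01 (SE 0.041, adjusted p = 0.87) with a 2 SE interval from -0.09 to 0.07, and its sign turned under several settings. GALNT7-DT, a noncoding RNA on the other strand that shares 98 bases with GALNT7, had 1457 and 1360 reads in parental libraries off the drug and 267 and 249 on it. In resistant cells it had 980 and 872 reads off the drug and 492 and 745 on it, and over all libraries it made up 5.4% of the reads of the pair. These reads are not scaled to library size. The TMM-scaled sizes of the parental libraries were 109458298 and 106868139 reads off the drug and 74972663 and 77444369 on it. That is a smaller difference than in the reads of GALNT7-DT. Resistant libraries had sizes of 74073376 and 64939974 off the drug and 67418588 and 96168650 on it. Relative to these sizes the reads were also lower on the drug. The size of the differences of GALNT7-DT and a test of them are not given.

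GALNT4 (chr12:89519412-89524796, minus strand) has a single exon and was barely covered. It had 8 and 10 reads in untreated parental libraries, 8 and 10 in treated parental ones, 4 and 8 in untreated resistant and 11 and 21 in treated resistant ones. The readthrough gene POC1B-GALNT4 covers 93.4% of its exon bases on the same strand, so most reads there would have matched both genes, and the level of GALNT4 is uncertain. GALNT4 reached the low-count cutoff in the resistant indisulam libraries alone, so its call in the resistant drug comparison is not read as a result. Its difference with the drug in resistant cells was 1.16 (SE 0.46). It was not called with the DESeq2 Wald test (1.13) or without the low-count filter (1.16). The value was 1.16 without either parental untreated library, 0.66 without resistant untreated replicate 1 and 0.90 without resistant indisulam replicate 2. None of its other 4 contrasts was called, with SEs of 0.42 to 0.68.

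**Figure D3:**
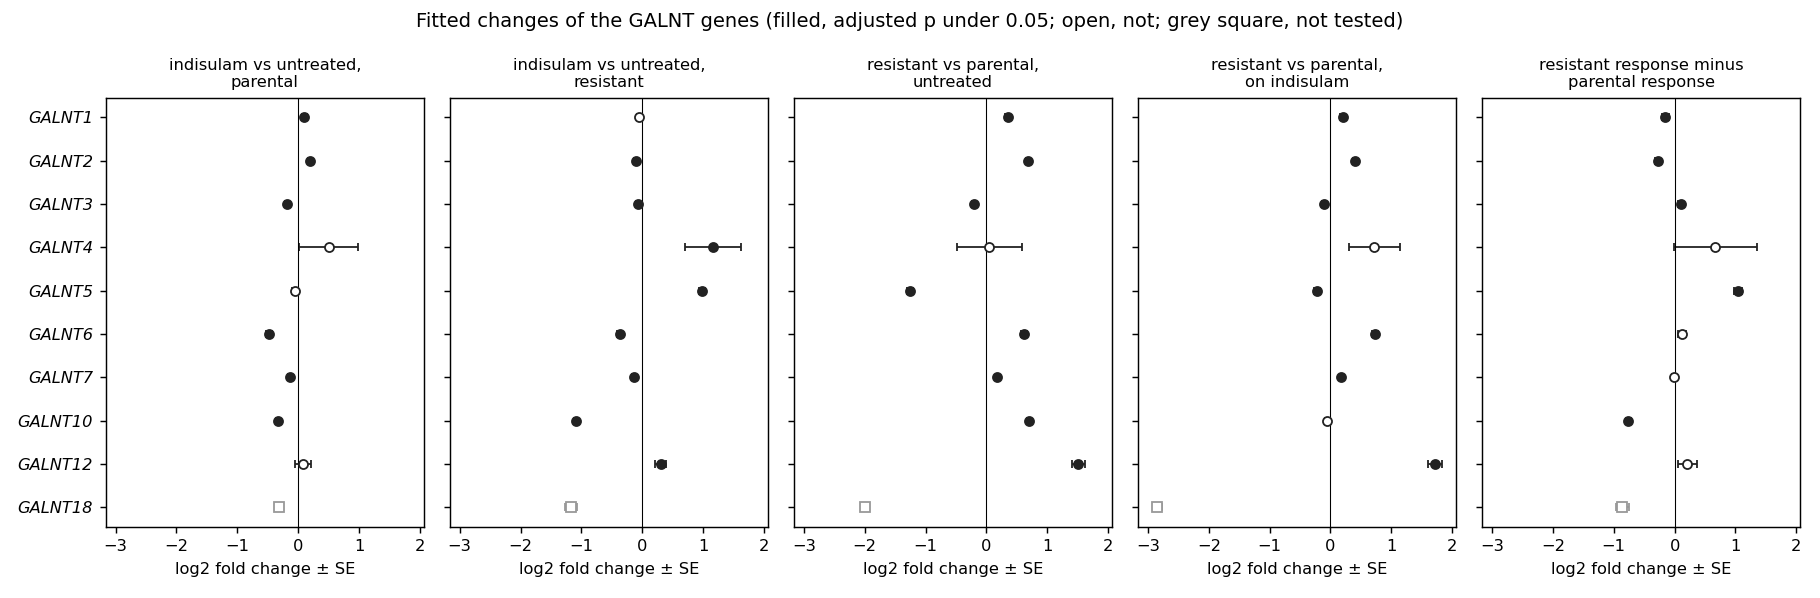
Fitted log2 fold change (x axis, bars are SE) of each GALNT gene (rows) in the 5 comparisons (panels), with filled points for an adjusted p under 0.05, open circles for others and grey squares for GALNT18, which was not tested. GALNT5 and GALNT12 lie farthest from 0 among the tested members when the untreated lines are compared, at -1.26 and 1.51, and GALNT4 carries the widest bars.

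In parental cells 18 h of indisulam changed 6 of the 8 members, 2 higher (GALNT1 and GALNT2) and 4 lower (GALNT3, GALNT6, GALNT7 and GALNT10). The largest was the fall of GALNT6 by 0.48 on the log2 scale. Over all tested genes 58.2% were called, 31.6% higher and 26.6% lower, so the share of members was near the background. The median member moved by -0.10 and the median of all genes by 0.01. With libraries scaled by totals alone, the share of higher among all calls was 42.0% instead of 54.3%.

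In resistant cells, continuous drug against the drug holiday changed 7 of the 8 members, 2 higher (GALNT5 and GALNT12) and 5 lower (GALNT2, GALNT3, GALNT6, GALNT7 and GALNT10). The background was 50.7% of all genes, 24.9% higher and 25.8% lower. With GALNT4 counted as higher, the 8 calls among 9 members became 5 with DESeq2's Wald test and 4 without resistant indisulam replicate 2. The median member moved by -0.09 and the median of all genes by 0.01. Scaling by totals alone put the share of higher among all calls at 59.7% instead of 49.1%.

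Between the untreated lines all 8 members differed, 6 higher in resistant cells (GALNT1, GALNT2, GALNT6, GALNT7, GALNT10 and GALNT12) and 2 lower (GALNT3 and GALNT5). All genes gave 60.1% called, 30.3% higher and 29.9% lower. The members' median was 0.48, from -1.26 for GALNT5 to 1.51 for GALNT12, and that of all genes was -0.02. This comparison shares its parental libraries with the parental drug comparison and its resistant libraries with the resistant drug comparison. The count was 8 with each library left out in turn.

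On the drug 7 of the 8 members differed between the lines, 5 higher in resistant cells (GALNT1, GALNT2, GALNT6, GALNT7 and GALNT12) and 2 lower (GALNT3 and GALNT5). Among all genes 69.5% were called, 34.6% higher and 34.9% lower. The members' median was 0.19, against 0.00 for all genes. The rule that selected GALNT18 on its fall in resistant cells names no comparison, so nothing is read from the line counts, off or on the drug.

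The drug response differed between the lines for 5 of the 8 members, 2 with a more positive response in resistant cells (GALNT3 and GALNT5) and 3 with a more negative one (GALNT1, GALNT2 and GALNT10). The background was 50.1% of all genes, 22.7% more positive and 27.5% more negative. The count was 3 with DESeq2's Wald test and 3 without parental untreated replicate 1, parental indisulam replicate 1 or resistant indisulam replicate 2. The members' median was 0.05, against 0.01 for all genes. Scaling by totals alone shifted the median of all genes by 0.12 here and put the share of positive among all calls at 65.8% instead of 45.2%. No called member changed direction under any alternative.

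**Figure D4:**
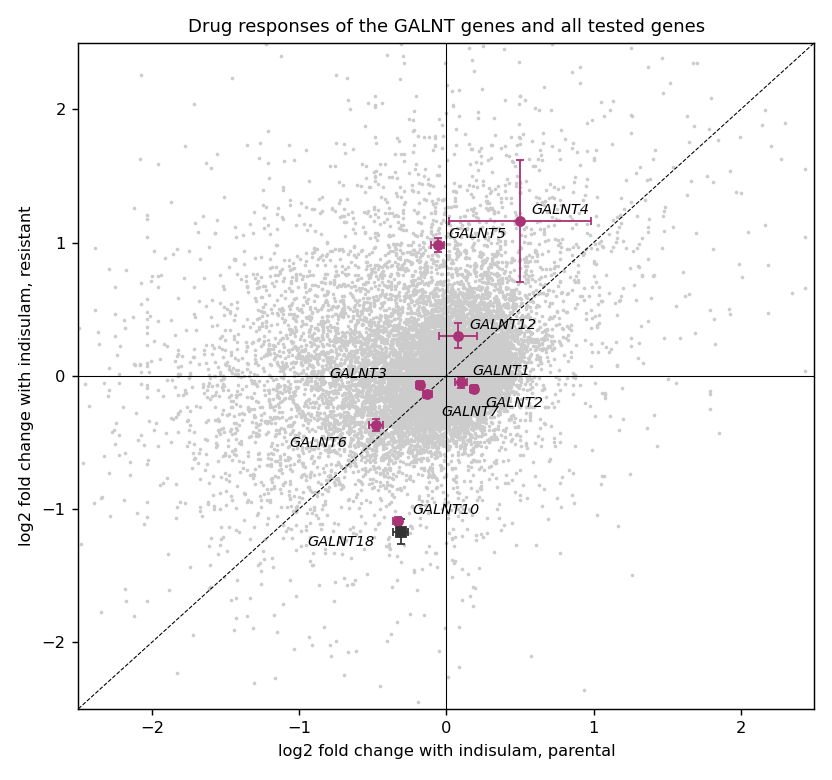
Log2 fold change with indisulam in resistant cells (y axis) against parental cells (x axis) for the GALNT genes, with SE bars, over all tested genes (grey, 16536 inside the axes and 125 outside), where the dashed line marks equal responses. GALNT5 (-0.06 and 0.98) lies far above that line, GALNT10 (-0.33 and -1.09) and GALNT18 (square, not tested) far below it, and GALNT7 on it.

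The rest of the pathway was described from whole gene lists, 1 per step, to be read against the 60.1% of all genes called between the untreated lines and the 69.5% called on the drug. Listed genes that reached the filter cutoff in resistant libraries alone (GCNT4, CHST4 and MUC16) are left out of the counts and medians of the lines. Of 10 other GALNT genes 3 passed the filter, and all 3 differed between the untreated lines (background 60.1%). GALNT11 was 35.8 ± 1.16 CPM in resistant and 22.5 ± 0.119 CPM in parental untreated cells (SD, n = 2). Its log2 difference was 0.67 off the drug (SE 0.040, adjusted p = 3.7e-13) and 0.23 on it (SE 0.040, adjusted p = 1.8e-05). GALNT14 was lower in resistant cells, by -0.59 off the drug (SE 0.052, adjusted p = 8.0e-10) and -1.13 on it (SE 0.053, adjusted p = 4.9e-15). GALNT9 was lower off the drug (-0.50, SE 0.11, adjusted p = 5.0e-04), and on it the value was 0.26 (SE 0.13, not called).

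Among the genes that extend and branch the chain (11 listed, 9 tested), 5 of the 8 counted differed between the untreated lines (background 60.1%), 3 higher in resistant cells and 2 lower, with a median of 0.06. B3GNT3, which extends the core 1 chain, was higher in resistant cells (0.65, SE 0.031, adjusted p = 7.8e-15). B4GALT5, a galactosyltransferase mainly known for making lactosylceramide, was higher too (0.58, SE 0.029, adjusted p = 1.3e-14). C1GALT1, the core 1 synthase, was slightly lower (-0.16, SE 0.033, adjusted p = 2.1e-04). Its chaperone C1GALT1C1 fell with the drug in resistant cells (-0.39, SE 0.043, adjusted p = 6.4e-08), and the responses of the lines differed by -0.50 (SE 0.058, adjusted p = 2.5e-07).

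Of the sialic acid and sulfate capping enzymes (12 listed, 8 tested), the 7 counted all add sialic acid. The sulfate enzymes GAL3ST2 and GAL3ST4 did not pass the filter, and CHST4 was left out. All 7 differed between the untreated lines (background 60.1%), 5 higher in resistant cells and 2 lower. Their median was 0.91, against -0.02 for all genes. ST3GAL1, which sialylates core 1, rose from 39.2 ± 0.926 to 137 ± 3.09 CPM (SD, n = 2). Its log2 difference was 1.81 off the drug (SE 0.032, adjusted p = 2.5e-23) and 1.91 on it (SE 0.034, adjusted p = 4.0e-23). ST6GALNAC5, which acts mainly on gangliosides and not on mucins, rose from 0.342 ± 0.00579 to 6.17 ± 0.231 CPM (SD, n = 2, log2 4.17, SE 0.13). ST6GALNAC4, which caps sialylated core 1, was lower (-0.69, SE 0.057, adjusted p = 5.4e-09). On the drug the 7 also differed (background 69.5%), 5 higher and 2 lower, with a median of 1.37.

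All 13 genes of donor sugar supply were tested, and 9 differed between the untreated lines (background 60.1%), 4 higher and 5 lower, with a median of -0.05. NANS, the sialic acid synthase, was lower in resistant cells, by -1.02 off the drug (SE 0.032, adjusted p = 2.1e-18) and -1.11 on it (SE 0.033, adjusted p = 6.4e-19). NANP, the phosphatase of the next step, was higher off the drug (0.59, SE 0.042, adjusted p = 1.6e-11). GALK2, a GalNAc kinase, rose with the drug in parental cells (0.77, SE 0.041, adjusted p = 4.4e-13) and less in resistant cells (0.24, SE 0.047, adjusted p = 1.3e-04), a difference of -0.53 (SE 0.062, adjusted p = 2.9e-07).

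Of the mucins and other O-glycosylated proteins (16 listed, 10 tested) 6 of the 9 counted differed between the untreated lines (background 60.1%), 3 higher and 3 lower, with a median of -0.01. MUC1 was higher in resistant cells off (1.63, SE 0.063, adjusted p = 1.2e-16) and on the drug, where it averaged 18.4 ± 1.13 CPM in resistant cells (SD, n = 2). PODXL, podocalyxin, was lower in resistant cells off (-1.30, SE 0.028, adjusted p = 1.0e-21) and on the drug (-1.49, SE 0.028, adjusted p = 1.8e-22).

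**Figure D5:**
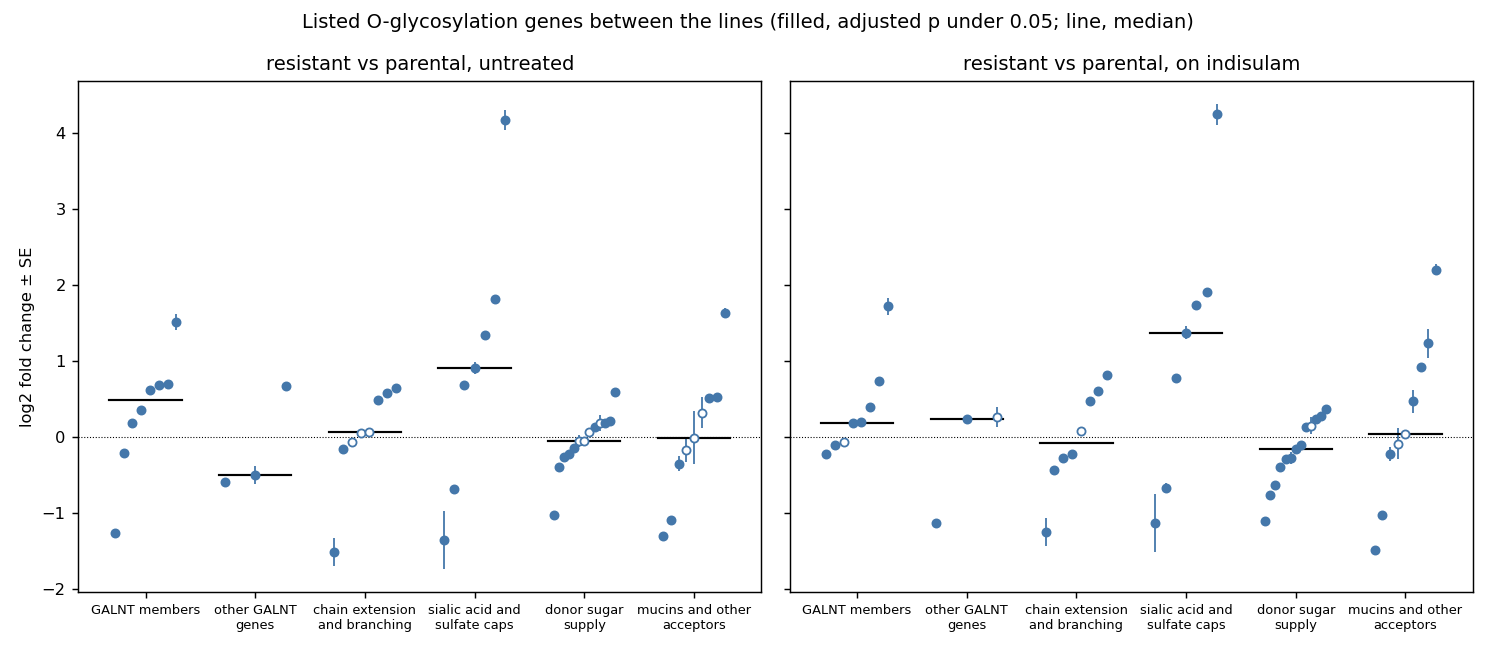
Log2 fold change of resistant against parental cells (y axis, bars are SE) for the tested genes of the listed O-glycosylation groups (x axis), untreated in the left panel and on indisulam in the right, with the list median as a line. GALNT4, GCNT4, CHST4 and MUC16, which reached the filter cutoff in resistant libraries alone, are not drawn. The capping enzymes drawn, which all add sialic acid, have medians of 0.91 and 1.37.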

How the data were processed

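The authors prepared stranded libraries from polyadenylated RNA, aligned paired reads to GRCh38 with HISAT2 2.2.1, marked duplicates (Picard) and deposited raw read counts per Ensembl gene. HTSeq is named without a version in the submitters' processing notes, and the annotation release and strand setting of the counting are not given in the sources used here. Reads matching several genes (5.91% to 7.68%) were on separate lines and left out. Symbols, loci and exon lengths came from GENCODE release 44, which matched 60419 of 60675 identifiers.

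Counts were filtered (filterByExpr, 16661 genes), scaled with TMM and fitted with edgeR 4.0.16 (R 4.3.3) as 4 group means over 8 libraries, by the robust quasi-likelihood test with 4 residual degrees of freedom. Adjusted p is Benjamini-Hochberg over all tested genes, called under 0.05. SE is the log2 fold change divided by the root of F. An exact permutation test of 2 against 2 libraries cannot go below 0.333. Reads are not independent molecules, so depth bounds counting error only.

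Members and lists were chosen with earlier results of these data known. Named pathway genes were at most the 2 largest called rises and falls per list and comparison at a mean log2 CPM of at least 1. A gene that met this rule is not reported here. Alternatives were another scaling (DESeq2 1.42.0 size factors, totals), DESeq2's Wald test, other low-count filters (none, mean CPM from 1 up), a fit of the compared groups alone, a replicate block, an adjusted p under 0.01, glmTreat against 0.5 log2 units, the longest transcript as length, and each library left out. The code was tested on simulated counts.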

Additional observations from a re-analysis of the deposited data

Results flagged for a closer look

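The response to indisulam differed between resistant and parental cells for 5 members by the interaction term of edgeR's quasi-likelihood fit. The difference, resistant minus parental on the log2 scale, was 1.04 for GALNT5 and -0.76 for GALNT10. It was -0.28 for GALNT2, -0.15 for GALNT1 and 0.10 for GALNT3. Over all tested genes 50.1% passed the same test. Exposure to the drug was 18 h in parental cells and continuous in resistant cells. The untreated baselines differed too, with no drug in parental cells and 1 wk off it in resistant cells. Line, exposure and baseline therefore cannot be told apart in these differences.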

How the results depend on the processing

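Of 749 recomputed values for the 9 tested members, 643 kept their direction and side of the threshold, 86 lost the call, 7 gained one and 13 changed sign, none of them for a called member. Counts in this section include GALNT4 unless stated, so the 8 in the resistant drug comparison holds its call, which is not read as a result. The comparisons are given in the order parental drug, resistant drug, untreated line, on-drug line and response difference. The members called numbered 6, 8, 8, 7 and 5 of 9. With glmTreat against 0.5 log2 units, a test that asks for a larger change, the counts were 0, 2, 5, 2 and 2. An adjusted p under 0.01 left 5 in the resistant drug comparison and 3 in the response difference, and DESeq2's Wald test also left 5 and 3. The calls on GALNT1 (parental drug, response difference) and GALNT3 (resistant drug) were lost with totals alone, DESeq2's Wald test, no low-count filter and a minimum mean CPM of 1. That on GALNT2 (resistant drug) was lost with totals alone, and that on GALNT3 (on-drug line) with totals alone and a minimum mean CPM of 1. That on GALNT3 (response difference) was lost with DESeq2 size factors and with DESeq2's Wald test. With 1 library left out the counts ran from 5 to 6, 4 to 9, 8 to 8, 6 to 7 and 3 to 5. The replicate number did not pair libraries (correlation of deviations between groups -0.192 to 0.137), and with the replicate block the counts were 6, 7, 8, 7 and 4, the calls on GALNT3 in resistant drug and response difference being lost. Signs changed for GALNT7 in the response difference with library totals (0.106, then called), no low-count filter (0.014), a minimum mean CPM of 1 (0.075) and 4 left-out libraries (all 8 gave -0.025 to 0.040). They changed for GALNT10 between lines on the drug with library totals (0.024) and a minimum mean CPM of 1 (0.016). With 1 library left out, GALNT1 in resistant drug ran from -0.113 to 0.005, GALNT12 in parental drug from -0.040 to 0.164, and GALNT4 between untreated lines from -0.600 to 0.558. The cause was not tested. GALNT18 ranged from -2.02 to -1.98 off the drug and from -2.90 to -2.77 on it between lines, over all alternatives. Fitting only the groups compared gives no response difference. Leaving out GALNT4, an alternative chosen after seeing the data because it reached the filter in 1 group alone, gave counts of 6, 7, 8, 7 and 5 of 8. GALNT4 rested on 4 to 21 reads.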
